A study of Mus musculus with 4 samples.

Results

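Peptides shown to T cells on major histocompatibility complex (MHC) class I molecules pass through a short chain of dedicated proteins, and the mRNAs of these proteins were measured here in mouse embryonic fibroblasts with and without menin. The genes were chosen by name and not by a rule on their measured values, though with earlier results of these data known. They were B2m, Tap1, Tap2, Tapbp, Psmb8, Psmb9, Psmb10, Psme1 and Psme2. Every probe set that the array's annotation assigned to exactly 1 gene symbol, that symbol being one of these, was used. This gave 12 of the 12422 probe sets tested and 8 of the 9 genes. Psme2 was not analysed here, because both of its probe sets (2 in all) carried another symbol as well.

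All cells in the series were Men1 knockout mouse embryonic fibroblasts of a mixed FVB;129Sv background, on Affymetrix arrays. Men1 had been put back into the cells of 2 arrays (Men1-complemented), and those of the other 2 arrays had received vector, so that cells of both groups carried the knockout and no cells with an intact Men1 locus were included. Cells were grown in DMEM with 10% FBS and antibiotics, seeded at 70% density and harvested with trypsin after 24 h. The labels name neither the number of embryos or cell lines nor the way Men1 was introduced, and nothing says that replicates were separate cultures, so p-values measure only the spread between these arrays. The series asked which genes act downstream of menin, the product of Men1 and a scaffold of histone-modifying complexes.

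In the class I pathway, the proteasome cuts cytosolic proteins into peptides, a transporter carries them into the endoplasmic reticulum, and a loading complex fits them to a heavy chain paired with β2-microglobulin. In cells exposed to interferon-γ, the 3 catalytic β subunits of the proteasome are replaced by Psmb8, Psmb9 and Psmb10, and a regulatory cap made of Psme1 and Psme2 is added. Fibroblasts are known to carry class I molecules at a basal level that interferon raises.

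Signals below are the deposited linear values in the scanner software's units, and differences are Men1-complemented minus vector on the log2(signal + 16) scale, which understates the fold of dim probe sets. As a measure of background, each signal was set beside 19 bacterial and yeast control probe sets, whose maximum was 25.9 and 27.4 for Men1-complemented replicates 1 and 2, and 15.9 and 20 for vector replicates 1 and 2. Vector replicate 2 stood apart: 42% of all probe sets had their highest signal there, against 19% to 19.8% on each of the other arrays. The single probe set of Men1 itself read 18.8 and 22.5 with Men1 against 18.1 and 29.5 with vector, below the highest control on the first 2 arrays and above it on the last 2. Its place in the transcript is not known here, so it does not check the labels. Of 14 measured fibroblast marker genes 9 were above the controls on all 4 arrays, Col1a1 at 6057.4 to 7618.7 among them. By contrast, Thy1 read 4.2 to 14.3. Of 7 epithelial markers 2 were above the controls on all 4 arrays, Cdh1 at 93.7 to 165.2 and Krt19 at 67.2 to 146.5. Another 4 of these did not exceed them on any array. Of 6 endothelial markers 2 were above on all 4, Eng at 89.9 to 138.5 and Pecam1 at 23 to 49.5, and 3 on none. Of 13 blood and immune cell markers 7 did not exceed the controls on any array, among them the leukocyte antigen Ptprc at 1.2 to 3.7, Lyz2, Cd3e and Tyrobp. Another 4 exceeded them on all 4 arrays: Cd14 at 218.3 to 257.8, Laptm5 at 62.5 to 91.3, Csf1r at 48.4 to 71.3 and Cd68 at 39.8 to 56.7. The part of such cells in the results was not tested. Summed signals of that list were 499.7 and 539.1 with Men1 and 485.7 and 573.7 with vector. In bulk RNA, fewer cells of a type and less RNA per cell cannot be told apart.

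Promoter sequences are shown first, for B2m, Psmb8, Psmb9 and Tap1. RefSeq (GRCm38.p6) gave a start site for 8 of the 9 genes. Psmb9, Tap1, Psmb8 and Tap2 lie next to each other on chromosome 17, in the class II part of the MHC. Psmb9 and Tap1 point away from each other and their starts are 225 bases apart, so 1 stretch of DNA lies directly before both genes. The same 225 bases before the start were taken for the other genes. The stretch between Psmb9 and Tap1 is given on the Tap1 strand (chr17:34187331-34187555, plus strand), that of B2m at chr2:122147462-122147686 (plus strand) and that of Psmb8 at chr17:34197970-34198194 (plus strand). Capitals mark matches to the core recognised by interferon regulatory factors (AANNGAAA), a gamma-activated site (TTCNNNGAA) or a κB site, each searched on both strands.
Psmb9-Tap1: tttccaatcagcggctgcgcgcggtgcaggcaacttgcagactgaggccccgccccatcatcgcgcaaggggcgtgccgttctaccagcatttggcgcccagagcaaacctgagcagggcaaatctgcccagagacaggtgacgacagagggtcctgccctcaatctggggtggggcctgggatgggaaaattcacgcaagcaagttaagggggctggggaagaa
B2m: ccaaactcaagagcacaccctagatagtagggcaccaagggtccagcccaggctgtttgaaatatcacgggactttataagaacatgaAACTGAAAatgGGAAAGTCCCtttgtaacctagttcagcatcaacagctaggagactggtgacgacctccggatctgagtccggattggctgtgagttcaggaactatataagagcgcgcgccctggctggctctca
Psmb8: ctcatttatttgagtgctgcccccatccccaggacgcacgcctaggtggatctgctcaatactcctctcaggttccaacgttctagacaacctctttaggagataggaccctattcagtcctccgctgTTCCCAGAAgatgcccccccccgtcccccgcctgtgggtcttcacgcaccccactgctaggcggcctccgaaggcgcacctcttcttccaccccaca
The B2m stretch held 1 match to the interferon regulatory factor core, 137 to 130 bases before the start, and 1 to the κB site, 126 to 117 bases before it; these did not overlap. Such matches occurred in 19.2% and 6.64% of 32851 RefSeq promoter stretches of this length. The Psmb8 stretch held 1 gamma-activated site match, found in 6.23% of promoters. Between Psmb9 and Tap1 there were none of these letters, but 1 GC box (GGGCGG, in 31.9% of promoters) and 1 CCAAT box (CCAAT, in 31.6%). The stretches not printed, those of Tapbp, Psmb10, Psme1 and Psme2, held no match to the interferon regulatory factor core, gamma-activated site or κB site. A match is a description of the sequence and does not show binding.

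Of the 12 probe sets, 7 were above the controls on all 4 arrays, and these represented 5 genes: B2m, Tap1, Tapbp, Psmb10 and Psme1. Among all probe sets the share above the controls on all arrays was 58.1%. None of the 12 passed the test between the groups (limma, Benjamini-Hochberg adjusted p = 1 for each), and of all 12422 probe sets 0% were called. At an unadjusted limma p under 0.05 there were 0 of 12, where 1.88% of all probe sets were. Groups did not overlap for 2 of the 12, Tap1 and Psme1, both lower with Men1, against 11.7% of all probe sets that were lower without overlap. With arrays divided 2 against 2, no two-sided exact permutation test can reach a p below 0.333.

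**Figure D1:**
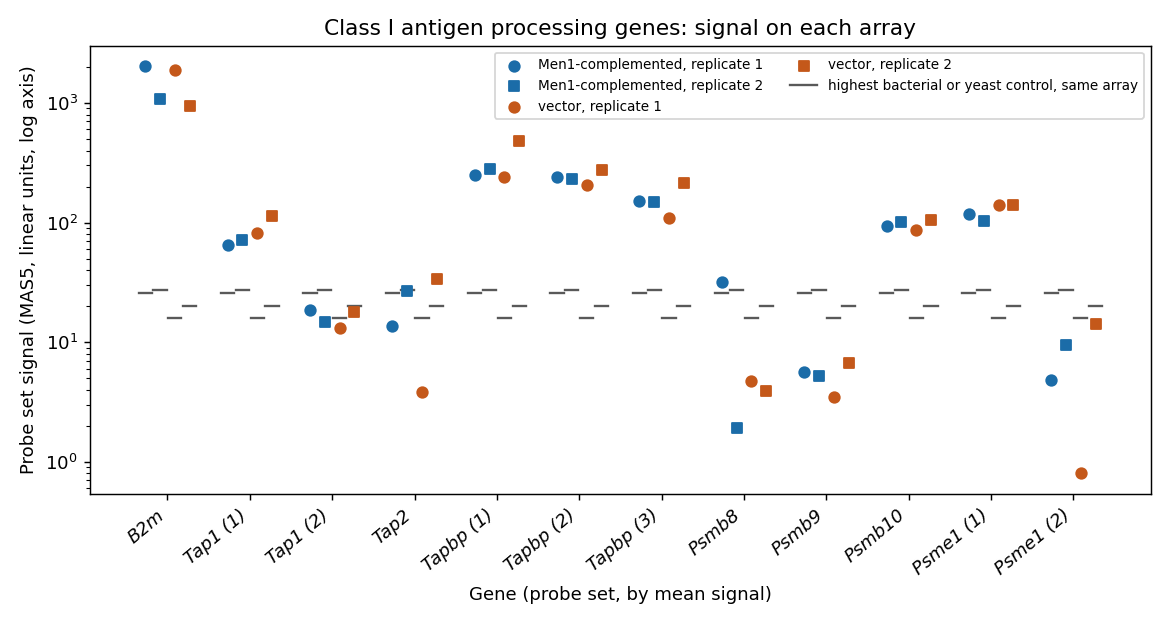
Signal of each of the 12 probe sets (log axis, linear MAS5 units) on the 4 arrays; circles are replicate 1 and squares replicate 2, blue Men1-complemented and orange vector, and short grey lines mark the highest bacterial or yeast control on the same array. Genes with several probe sets are numbered by mean signal. B2m separates by replicate number and not by group, Tapbp is highest on vector replicate 2 in all 3 probe sets, and Psmb9 lies below the controls on every array.

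The interferon-inducible catalytic subunits were at or near background in these fibroblasts, apart from Psmb10. Psmb9, the subunit that replaces Psmb6, read 5.6 and 5.2 with Men1 against 3.5 and 6.7 with vector, below the controls on all 4 arrays, so no fold is given. Psmb8, which replaces Psmb5, read 31.7 and 1.9 with Men1 against 4.7 and 3.9 with vector. Its reading of 31.7 was the only one above the control level. The replicates of the Men1-complemented group thus differed by 1.41 on the log2 scale, more than for 99.4% of probe sets, and the group difference of 0.53 (SE 0.48, 95% interval -0.73 to 1.78) rests on that array. Without Men1-complemented replicate 1 it was -0.18, and without replicate 2 of that group 1.23. Psmb10, which replaces Psmb7, was above the controls throughout and read 93.7 and 100.8 with Men1 against 86.6 and 104.6 with vector. These groups overlapped, and the difference was 0.03 (SE 0.19, 95% interval -0.46 to 0.51).

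The constitutive subunits that these 3 replace were all above the controls on every array. Psmb5 read 441.2 and 484.2 against 590.3 and 353.9 (difference 0.01, SE 0.29) in its brighter probe set. The other read 97.7 and 98.6 against 77.9 and 96.5, higher with Men1 without overlap (difference 0.15, SE 0.19). Psmb6 read 167.6 and 166.7 against 165.8 and 192.1 (difference -0.09, SE 0.18). Psmb7 read 338 and 350.3 against 359.1 and 371.9, which did not overlap but differed by only -0.08 (SE 0.17). Signals of different probe sets are not on a common scale, so the ratio of inducible to constitutive subunits was not computed.

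Psme1, the α subunit of the PA28 cap that opens the proteasome gate, was lower with Men1 on both arrays than on either vector array. Its brighter probe set read 118.4 and 102.5 with Men1 (mean 110.45 ± 11.2, SD, n = 2) and 139.3 and 140.6 with vector (mean 139.95 ± 0.919, SD, n = 2). The difference was -0.31 (SE 0.18, 95% interval -0.77 to 0.16), or 1.24-fold on this scale, and did not pass (limma adjusted p = 1, unadjusted p = 0.148). Without single arrays it ranged from -0.40 to -0.21. The vector replicates were closer to each other than those of all but 2.3% of probe sets. The other Psme1 probe set read 4.8 and 9.5 against 0.8 and 14.2, below the controls on all arrays.

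Tap1, the transporter subunit that with Tap2 forms the peptide channel of the endoplasmic reticulum, was also lower with Men1 without overlap. It read 64.4 and 71.7 with Men1 (mean 68.05 ± 5.16, SD, n = 2) and 81.5 and 112.8 with vector (mean 97.15 ± 22.1, SD, n = 2), above the controls throughout. The difference of -0.42 (SE 0.22, 95% interval -0.97 to 0.14), 1.33-fold on this scale, did not pass (limma adjusted p = 1, unadjusted p = 0.113). Its size depended on the vector arrays: without vector replicate 1 it was -0.62 and without vector replicate 2 it was -0.22. The other Tap1 probe set read 18.7 and 14.6 against 13.2 and 17.7, at or below control level on every array.

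Tap1 and Psmb9, which share the promoter stretch printed above, thus differed in detection: the brighter Tap1 probe set exceeded the controls on every array, whereas the Psmb9 probe set and the dimmer one of Tap1 exceeded them on none. Since 1 of the Tap1 probe sets also read at background, a reading at background does not show that a transcript was missing. Tap2 read 13.5 and 26.8 with Men1 against 3.8 and 33.6 with vector, above the control level on vector replicate 2 alone. The vector replicates spanned the range of all 4 arrays, so the difference of 0.18 (SE 0.49) has no settled sign: without vector replicate 1 it was -0.48 and without vector replicate 2 it was 0.84.

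Tapbp, tapasin, the bridge between the transporter and the empty class I molecule, was above the controls in all 3 of its probe sets. The brightest read 249.1 and 281.3 with Men1 against 240.7 and 476.1 with vector. The second read 238.6 and 230.6 against 207.9 and 276, and the third 150.1 and 147.3 against 109.5 and 214.9. In each of the 3, vector replicate 1 was the lowest array and vector replicate 2 the highest, with the Men1-complemented arrays between them. Differences were -0.34 (SE 0.35), -0.03 (SE 0.21) and -0.05 (SE 0.33). For the brightest, the spread of 0.94 between the vector replicates was larger than that of 92.6% of probe sets, and the difference turned to 0.13 without vector replicate 2 and grew to -0.81 without vector replicate 1 (limma unadjusted p = 0.0185, adjusted p = 0.576).

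B2m, the light chain common to class I molecules, read 2025.8 and 1081.6 with Men1 against 1868.5 and 941.1 with vector. The arrays numbered 1 were high and those numbered 2 low in both groups, by 1.87-fold with Men1 and 1.99-fold with vector. This spread between replicates exceeded that of 96.9% of probe sets on the Men1-complemented arrays and 93.6% on the vector arrays. The group difference was 0.16 with an SE of 0.46 (95% interval -1.03 to 1.34). It was -0.29 and 0.60 without Men1-complemented replicates 1 and 2, and 0.65 and -0.33 without vector replicates 1 and 2. Leaving out 1 array unbalances the replicate numbers between the groups. With replicate number as a block the difference was 0.16 (SE 0.19). Within the vector group, the direction of the B2m spread between replicates was opposite to that of Tapbp, Tap1 and Psmb10. There, these were lower on the array numbered 1 than on that numbered 2. With Men1 the brightest probe set of each was lower on the array numbered 1 as well. The dimmer probe sets of Tapbp and Tap1 were higher on it, as B2m was.

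**Figure D2:**
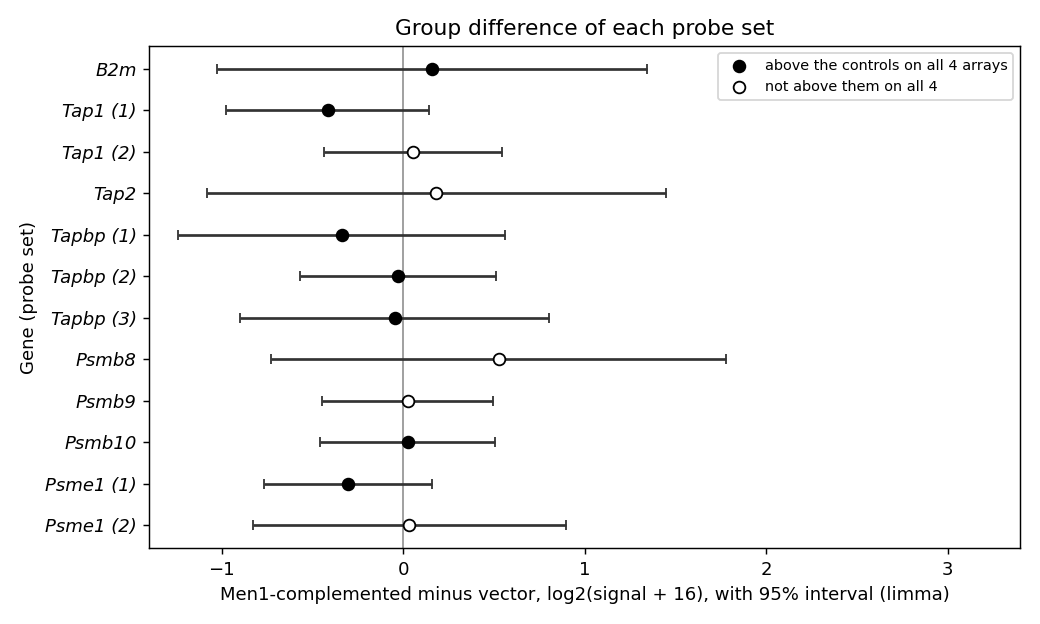
Difference between Men1-complemented and vector for each probe set on the log2(signal + 16) scale, with 95% intervals from limma (2 arrays a group); filled circles are probe sets above the controls on all 4 arrays. All 12 intervals include 0, the widest being those of Psmb8, Tap2 and B2m.

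With 1 probe set a gene, the brightest, 3 of the 8 genes were lower with Men1 and 5 higher, with a median of 0.025. The median of all 8251 genes was -0.01, and 53.0% of them were lower. Among the 5 counted as higher, Psmb8, Psmb9 and Tap2 were not above the controls on all 4 arrays. With a minimum mean signal of 50, which left B2m, Tap1, Tapbp, Psmb10 and Psme1, the median was -0.31. Across all 12 probe sets, 9 had their highest signal on vector replicate 2, where 42% of all probe sets had theirs. Of the 7 above the controls throughout, 6 did, against 37.6% of all such probe sets; the exception was B2m. The 3 Tapbp probe sets belong to 1 gene, and these counts are not independent. The replicates differed more with vector than with Men1 for 10 of the 12, and over all probe sets the median absolute difference between replicates was 0.31 with vector and 0.20 with Men1.

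Class I heavy chains bind the peptide itself, and 10 of the 22 listed genes were measured. No heavy chain passed (0 at an adjusted limma p under 0.05, 1 at an unadjusted one), with 3 genes higher, 7 lower and a median of -0.11. H2-Q10 read 37.7 and 34 with Men1 against 50.4 and 70.7 with vector, a difference of -0.55 (SE 0.21, limma unadjusted p = 0.0490, adjusted p = 1). H2-K1, a classical heavy chain, read 130.8 and 100.6 against 115.2 and 190.7 (difference -0.33, SE 0.29) in its brightest probe set and 67.6 and 62.1 against 47.8 and 64.8 (difference 0.17, SE 0.20) in the next. H2-D1, the other classical chain measured, read 199.3 and 153.4 against 175.6 and 164.9 (difference 0.04, SE 0.20) in its brightest probe set and 100.7 and 83.3 against 89.8 and 151.6 (difference -0.31, SE 0.28) in the next. H2-Q4 differed by -0.36 (SE 0.28). H2-M3 read 55.3 and 14.9 against 39.9 and 54.8, a difference of -0.42 (SE 0.44) that was -1.03 without Men1-complemented replicate 1 and 0.18 without replicate 2 of that group; its other probe set differed by 0.43 (SE 0.49). The median of the list was -0.29 without vector replicate 1 and -0.0083 without vector replicate 2. Several of these probe sets carry a suffix by which the manufacturer marks probes shared within a gene family, so signals of near-identical heavy chains may be mixed. Of 15 heavy chain probe sets, 9 were highest on vector replicate 2 and 5 on Men1-complemented replicate 1.

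**Figure D3:**
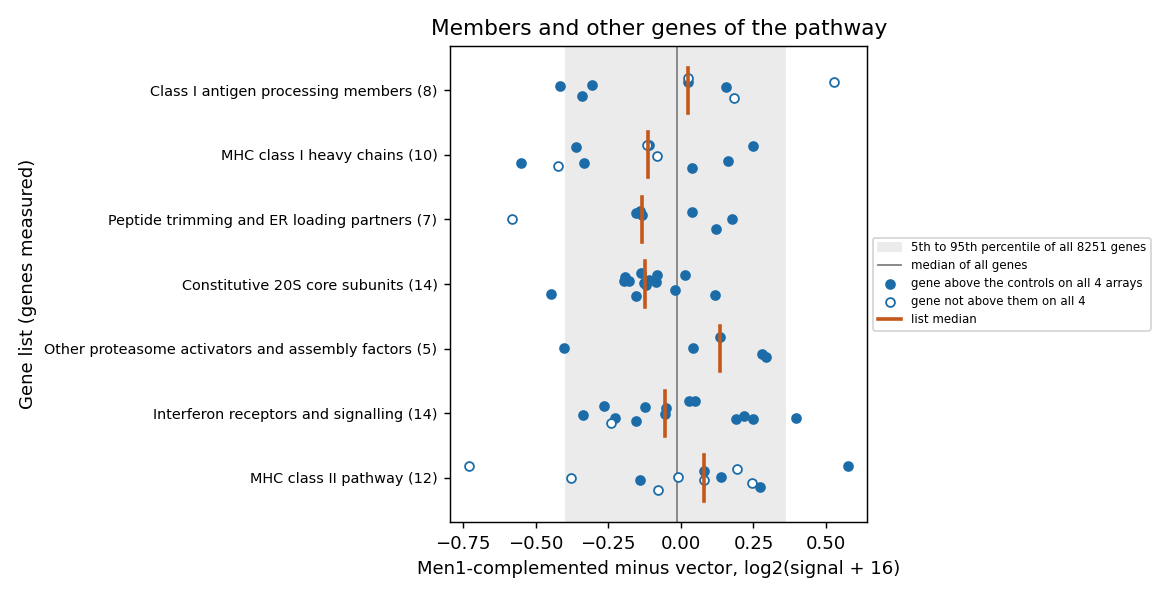
Differences on the log2(signal + 16) scale, Men1-complemented minus vector, of 1 probe set a gene for the class I processing genes and 6 related lists, with the number of genes measured in parentheses; orange bars are list medians, the grey band spans the 5th to 95th percentile of all 8251 genes (-0.40 to 0.36), and open circles are genes not above the controls on all 4 arrays. List medians lie between -0.13 and 0.13.

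Partners that trim peptides or help load them gave 3 genes higher and 4 lower of 7 measured (median -0.13), with 0 past the limma threshold and 1 at an unadjusted p under 0.05. The median was 0.05 without Men1-complemented replicate 1, 0.03 without vector replicate 2 and 0.04 over probe sets with a mean signal over 50. That 1 gene was Calr, the chaperone calreticulin, whose only probe set read 5.2 and 2 with Men1 against 10.8 and 15.9 with vector, never above the controls, so its difference of -0.58 (SE 0.20) gives no usable fold. Pdia3, the disulfide isomerase of the loading complex, read 757.3 and 945.4 against 930.2 and 958.3 (difference -0.16, SE 0.20). The cytosolic peptidases Npepps and Tpp2 differed by 0.17 (SE 0.17) and 0.12 (SE 0.18), both higher with Men1 without overlap.

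All 14 constitutive core subunits were above the controls throughout, with 2 higher and 12 lower (median -0.12), where 53.0% of all genes were lower. None passed (0 also at an unadjusted limma p under 0.05). Groups did not overlap for 3 of the 14 (Psmb1, Psma7 and Psmb7), all lower with Men1. Of all genes 12.0% were lower without overlap. Psmb1 read 146.1 and 185.4 with Men1 against 247.1 and 214.5 with vector, a difference of -0.45 (SE 0.20, limma unadjusted p = 0.0826, adjusted p = 1), while its next probe set differed by -0.10. Psma5, Psma7 and Psma6 differed by -0.20 (SE 0.19), -0.19 (SE 0.19) and -0.18 (SE 0.23). Without vector replicate 2 the median of the list was -0.27, and without vector replicate 1 it was -0.03. Among the other activators and assembly factors, 4 were higher and 1 lower (5 measured, median 0.13, 0 past the threshold and 0 at an unadjusted p under 0.05). Their median was 0.46 without vector replicate 1 and -0.14 without vector replicate 2. Pomp, the maturation factor of newly made proteasomes, read 465.6 and 536.2 with Men1 against 635.4 and 696.7 with vector, without overlap (difference -0.40, SE 0.18, limma unadjusted p = 0.0823, adjusted p = 1). Psme3 and Psme4, alternative proteasome caps, differed by 0.13 (SE 0.25) and 0.29 (SE 0.29), both below 0 without vector replicate 2 (-0.14 and -0.07). The assembly chaperones Psmg1 and Psmg2 differed by 0.28 (SE 0.21) and 0.04 (SE 0.35), Psmg1 being higher with Men1 without overlap.

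Of the interferon pathway, known to induce the immunoproteasome and the peptide transporter, 14 of 18 listed genes were measured, with 6 higher and 8 lower (median -0.05), 0 past the limma threshold and 0 at an unadjusted p under 0.05. Irf1, a transcription factor that activates class I processing genes, read 92.4 and 112.2 with Men1 against 92.6 and 188 with vector (difference -0.34, SE 0.35). As with Tapbp, its highest signal was on vector replicate 2, and the difference was -0.79 without vector replicate 1 (limma unadjusted p = 0.0262, adjusted p = 0.576) but 0.12 without vector replicate 2. Tyk2, a receptor kinase, read 129.9 and 105.2 against 78.4 and 92.4 (difference 0.39, SE 0.20), higher with Men1 without overlap. Irf9 and Ifnar1 differed by -0.26 (SE 0.19) and -0.23 (SE 0.18), both lower without overlap.

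Genes of the class II pathway, some of which lie beside Psmb9 and Tap1 on the chromosome, were 7 higher and 5 lower (12 measured, median 0.08), with 0 past the limma threshold and 0 at an unadjusted p under 0.05. Without vector replicate 1 the median was -0.19, and without vector replicate 2 it was 0.19. H2-Aa, H2-Ab1, H2-Eb2 and H2-Ob did not exceed the controls on any array. H2-DMb1, a subunit of the class II peptide editor, read 62.1 and 36.9 with Men1 against 21.4 and 33.7 with vector, higher without overlap (difference 0.58, SE 0.28). H2-DMb2 read 65.9 and 11.6 against 48.3 and 80.5 (difference -0.73, SE 0.56), with the reading of 11.6 below the control level. Its difference was -1.51 without Men1-complemented replicate 1 and 0.06 without replicate 2 of that group. Cd74, the invariant chain, read 64 and 70.5 against 54 and 51.7, higher without overlap (difference 0.27, SE 0.17). With H2-Aa and H2-Ab1, both at control level, 4 of the 12 genes were higher without overlap, and 1 was lower. Among all 8251 genes, 835 were higher and 990 lower without overlap.

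Over the 4 arrays, the mean profile of the 8 genes was followed most closely by Cnot4, Mrpl24 and Man2c1, with root mean square distances of 0.012, 0.020 and 0.022 on the log2 scale among 4310 probe sets. That mean joins unlike patterns, since B2m was highest on Men1-complemented replicate 1 and Tapbp on vector replicate 2. Likeness to the mean is therefore not likeness to each of the genes. With 4 arrays, it is a description only.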

How the data were processed

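RNA of 4 samples (2 Men1-complemented, 2 vector) was labelled with biotin and hybridised to 4 arrays. The deposited intensity values are linear probe set signals made by the authors with MAS5 in Affymetrix Expression Console, per the submitters' processing notes; no version is given in the sources used here. Trimmed means (2% at each end) were 150.07 to 150.08 on all arrays, so each had been scaled as a whole. Array medians still ran from 50 to 62.4 after that scaling, and no further normalization was applied. The number of arrays limits the precision.

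Of 12488 probe sets, 66 controls were left out. Among the 12422 tested, the platform annotation gave a single symbol to 10833, more than 1 to 396 and none to 1193; the gene IDs of 10817 were found in RefSeq (GRCm38.p6). Values were analysed as log2(signal + 16) with lmFit and eBayes of limma 3.58.1 under R 4.3.3, as two-sided tests with a threshold of 0.05 after Benjamini-Hochberg adjustment over all probe sets (2 residual and 2.87 prior degrees of freedom); the script was tested on simulated data. Each gene of a list was represented by the probe set with the highest mean. Named were all probe sets of the chosen genes, Psmb5, Psmb6, Psmb7 and Irf1, up to 4 genes a list by smallest p, and the 3 probe sets (mean signal over 100) nearest in pattern; H2-D1, Psmg2 and the class II genes at control level were singled out after their values were seen. The genes and lists were chosen with earlier results of these data known. Alternatives were pseudocounts of 1 and 64, quantile normalization, a mean signal over 50, replicate number as a block, a variance trend, gene means over probe sets, and leaving out each array.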

Additional observations from a re-analysis of the deposited data

How the results depend on the processing

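By limma, 0 probe sets passed in any setting run, of all 12422 and of the 12 described. Counts of all probe sets at an unadjusted p under 0.05 (233 in the reported fit) were 67 when only mean signals over 50 were tested, and 121 to 1031 without single arrays (1031 without vector replicate 1, 559 without vector replicate 2, 121 and 131 without Men1-complemented replicates 1 and 2); a group left with 1 array was taken to vary as the other group did. For the class I processing probe sets these counts were 0 to 2 without single arrays: 1 (Psmb8) without Men1-complemented replicate 2, and 2 (Tap1 and Tapbp) without vector replicate 1. The lowest adjusted p of any of them was 0.576. The median over the class I processing genes, 0.025 as reported, was -0.31 with the minimum mean signal of 50. That minimum removed Psmb8, Psmb9 and Tap2. Without single arrays the median was -0.22 to 0.13. The median of the core proteasome subunits ranged from -0.27 to -0.033 without single arrays, and the cause of that range was not tested. The median of the interferon list was -0.14 with means over all probe sets of a gene. Those means took in dimmer probe sets of Irf7 (-0.44), Ifnar2 (-0.27), Jak2 (-0.27), Socs3 (-0.24) and Irf3 (-0.11). Each was lower than the brighter probe set of its gene. The dimmer probe sets of Jak2 and Irf3 exceeded the controls on 0 arrays, that of Irf7 on 1 and that of Socs3 on 2. Of 115 alternative values for the 12 probe sets, 16 changed sign, 1 of them (the dimmer Psme1 probe set) with a pseudocount of 64 and the others when 1 array was left out. The groups share replicate numbers, but nothing says that a number marks a shared culture or day. Deviations of same-numbered arrays correlated at 0.26 over probe sets, and with the replicate block 297 probe sets were at an unadjusted p under 0.05, 0 of the 12 among them, with 0 past the threshold. Signals near the controls limit what can be said of Psmb8, Psmb9 and Tap2.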
